A study of Homo sapiens with 14 samples.

Results

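CLK1, CLK2, CLK3 and CLK4 encode the CDC-like kinases, and these 4 genes are described here in RNA-seq libraries of MDA-MB-231 cells. The 4 were taken by their symbols from the 60876 genes with a matched transcript, and they were selected on earlier results of the same data at gene level, so their levels and changes are given as a description. MDA-MB-231 is a human breast cancer cell line of mesenchymal appearance. Its libraries carried the markers of such cells (VIM between 2084 and 2694 TPM) and no PGR. Of the genes that were listed as low, KRT18, an epithelial keratin, stood between 294 and 458 TPM and ERBB2 between 14.8 and 22.9 TPM. The study asked how 2 small molecules that reduce ribosome biogenesis, RBI2 and CX-5461, alter gene expression. Cells received 5 µM CX-5461 or 5 µM RBI2 for 10, 30 or 120 min, and the labels name no compound for the control cells, which the study calls untreated in its methods and DMSO-treated elsewhere. Each of the 7 groups had 2 libraries, 14 in all, with between 14112299 and 24849354 estimated reads. Nothing states that replicates came from separate cultures, so p-values measure the spread between these libraries only. All comparisons with the control share the same 2 control libraries, and the deposited tables carry other numbers in their names than the minutes in the labels, so that every time below is the labelled one.

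CLK kinases phosphorylate the SR proteins, splicing factors rich in arginine and serine, and thereby alter which exons enter an mRNA. Their own transcripts are subject to alternative splicing. Transcripts that keep an intron or lack an exon can be held in the nucleus or be degraded by nonsense-mediated decay, a pathway that removes mRNAs with an early stop codon. The annotation lists transcripts of 3 kinds that matter here: protein-coding, retained-intron and nonsense-mediated decay. The last 2 kinds are called unproductive below.

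CLK1 lies on the minus strand of chromosome 2 (GRCh38, 200853009 to 200864691), CLK2 on the minus strand of chromosome 1 (155262868 to 155278491), CLK3 on the plus strand of chromosome 15 (74598500 to 74645414) and CLK4 on the minus strand of chromosome 5 (178602664 to 178630615). The tables hold 61 of their transcripts. CLK1 had 14, of which 3 were protein-coding, 8 retained-intron and 2 nonsense-mediated decay. CLK2 had 7, of which 3 were protein-coding and none was unproductive. The other 4 CLK2 transcripts, whose coding sequence the annotation leaves undefined, held 62.3% and 33.6% of the gene's TPM in the control libraries. CLK3 had 27 and CLK4 had 13. Of the 61 transcripts, 15 held at least 5% of their gene's TPM on average, 11 had no read in any library and 29 passed the filter on low counts. A Y_RNA gene lies within CLK1 and RN7SKP70 within CLK4 on the same strand, and how reads were divided between them was not tested.

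Some unproductive transcripts of CLK1 and CLK4 skip exon 4 or retain an intron next to it, and its sequence is shown because the transcripts below differ by its presence. Of the CLK1 transcripts, 8 are not informative for this exon. Each line gives the GRCh38 sequence on the transcribed strand, 5′ to 3′, with the exon in capitals and 30 bases of intron 3 and intron 4 in lower case. The CLK1 stretch is chr2:200860095-200860245 and the CLK4 stretch is chr5:178617314-178617464.
CLK1 exon 4: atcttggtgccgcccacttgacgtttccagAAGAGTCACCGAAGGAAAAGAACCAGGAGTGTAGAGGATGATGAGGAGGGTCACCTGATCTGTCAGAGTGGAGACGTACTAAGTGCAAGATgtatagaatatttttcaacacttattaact
CLK4 exon 4: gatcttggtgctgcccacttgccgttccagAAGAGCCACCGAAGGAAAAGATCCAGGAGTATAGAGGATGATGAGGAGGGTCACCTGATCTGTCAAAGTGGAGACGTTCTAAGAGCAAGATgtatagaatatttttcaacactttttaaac

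Both exons were 91 bases long, which leaves a remainder of 1 on division by 3, and 85 of the 91 bases (93.4%) were identical. How reads from this exon were divided between CLK1 and CLK4 was not tested. Without exon 4, exon 3 is joined to exon 5, and the junction is printed with the last 15 bases of exon 3 in lower case and the first 15 bases of exon 5 in capitals.
CLK1 junction: cgtcgttcacatgggATGAAATTGTTGATA
CLK4 junction: catcagtcacgttcgATGAAATCGTGGACA

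The reading frame of the CLK1 coding transcript, CLK1-201, has 484 codons. In CLK1-204, the annotated decay transcript without exon 4, the same start codon led to a stop after 136 codons, in exon 5, which lies 809 bases before the last exon junction. In CLK4-210, the corresponding CLK4 transcript, the frame ended after 143 codons, also in exon 5 and 823 bases before the last junction, against 481 codons in CLK4-201. CLK4-212 skips the exon too, and CLK1-207, CLK1-210, CLK4-202, CLK4-203 and CLK4-206 retain intron 3, intron 4 or both.

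**Figure D1:**
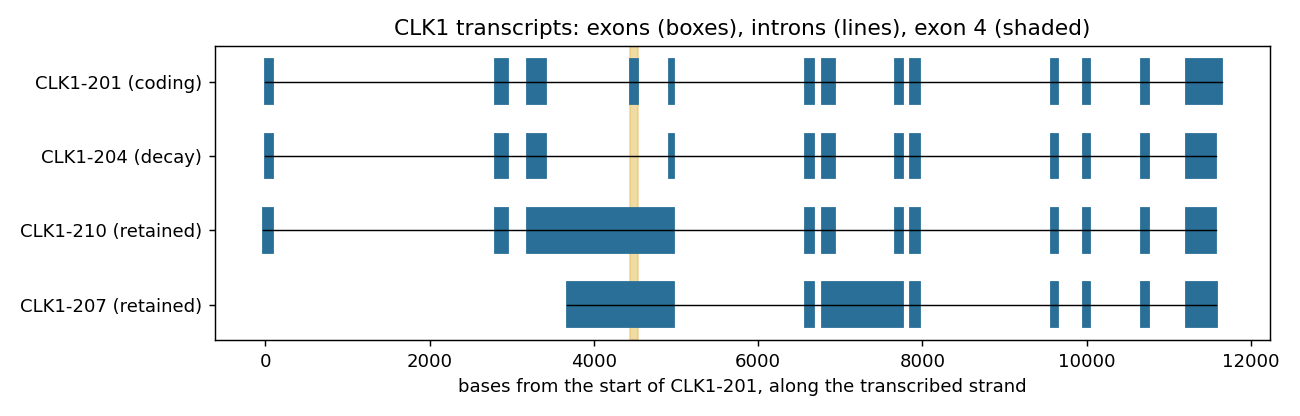
Exons (boxes) and introns (lines) of 4 CLK1 transcripts against the distance in bases from the start of CLK1-201, with exon 4 shaded. CLK1-204 lacks exon 4, CLK1-210 reads through introns 3 and 4, and CLK1-207 starts within intron 3.

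CLK1 was the only member with a change that passed the test. Its level in the 2 control libraries was 57.7 and 69.2 CPM, a read count scaled by TMM for library size and composition. After CX-5461 it was 28.1 and 27.8 CPM in the 10 min libraries, 38.3 and 36.4 CPM after 30 min, and 30.2 and 31.5 CPM after 120 min. After RBI2 it was 54.4 and 47.6 CPM in the 10 min libraries, 35.4 and 33.1 CPM after 30 min, and 25.9 and 25.4 CPM after 120 min. Both control libraries lay above all 12 treated libraries on this scale, but not by TPM, which is given with the transcripts. The share of all genes or transcripts whose libraries separate in this way was not computed, so nothing is read from it here or below.

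Tests were made with edgeR's quasi-likelihood test over 15426 genes, and a gene passed where the Benjamini-Hochberg adjusted p lay under 0.05 and the log2 change was 1 or more in size. CLK1 fell at 10 min of CX-5461 by 1.18 on the log2 scale (SE 0.10, adjusted p = 0.00014), a comparison in which 1.64% of all genes passed. It fell by 1.04 at 120 min of CX-5461 (SE 0.10, adjusted p = 0.0051), where 0.0454% of genes passed. It fell by 1.304 at 120 min of RBI2 (SE 0.11, adjusted p = 0.0012), where 1.82% passed. The change was -0.76 at 30 min of CX-5461 (adjusted p = 0.14), where 0% of genes passed, -0.31 at 10 min of RBI2 (adjusted p = 0.28), where 0.0778% passed, and -0.89 at 30 min of RBI2 (adjusted p = 0.023), where 0.0389% passed. Since the members were chosen with these contrasts known, nothing is read from their count, 3 of 24 tests, against these shares.

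All 3 CLK1 calls were lost under 2 alternatives, and 2 of them under the setting nearest to the study's own method. With an offset for the average effective length of a gene's transcripts, as tximport makes it, none of the 3 passed: the changes were -0.83 (adjusted p = 0.092), -1.09 (adjusted p = 0.20) and -0.65 (adjusted p = 0.13), and that of RBI2 at 10 min turned to 0.13. The study's methods summarised transcripts with tximeta for DESeq2, a route that carries such an offset. With DESeq2 and the offset together, an alternative added after seeing the data, CLK1 passed only at 120 min of CX-5461 (-1.13, adjusted p = 0.00082), and the other 2 changes were -0.83 (adjusted p = 0.016) and -0.65 (adjusted p = 0.056). With a fit on the 4 libraries of a comparison alone, the sizes were -1.17, -1.07 and -1.3, but the adjusted p was 0.15, 0.69 and 0.28.

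**Figure D2:**
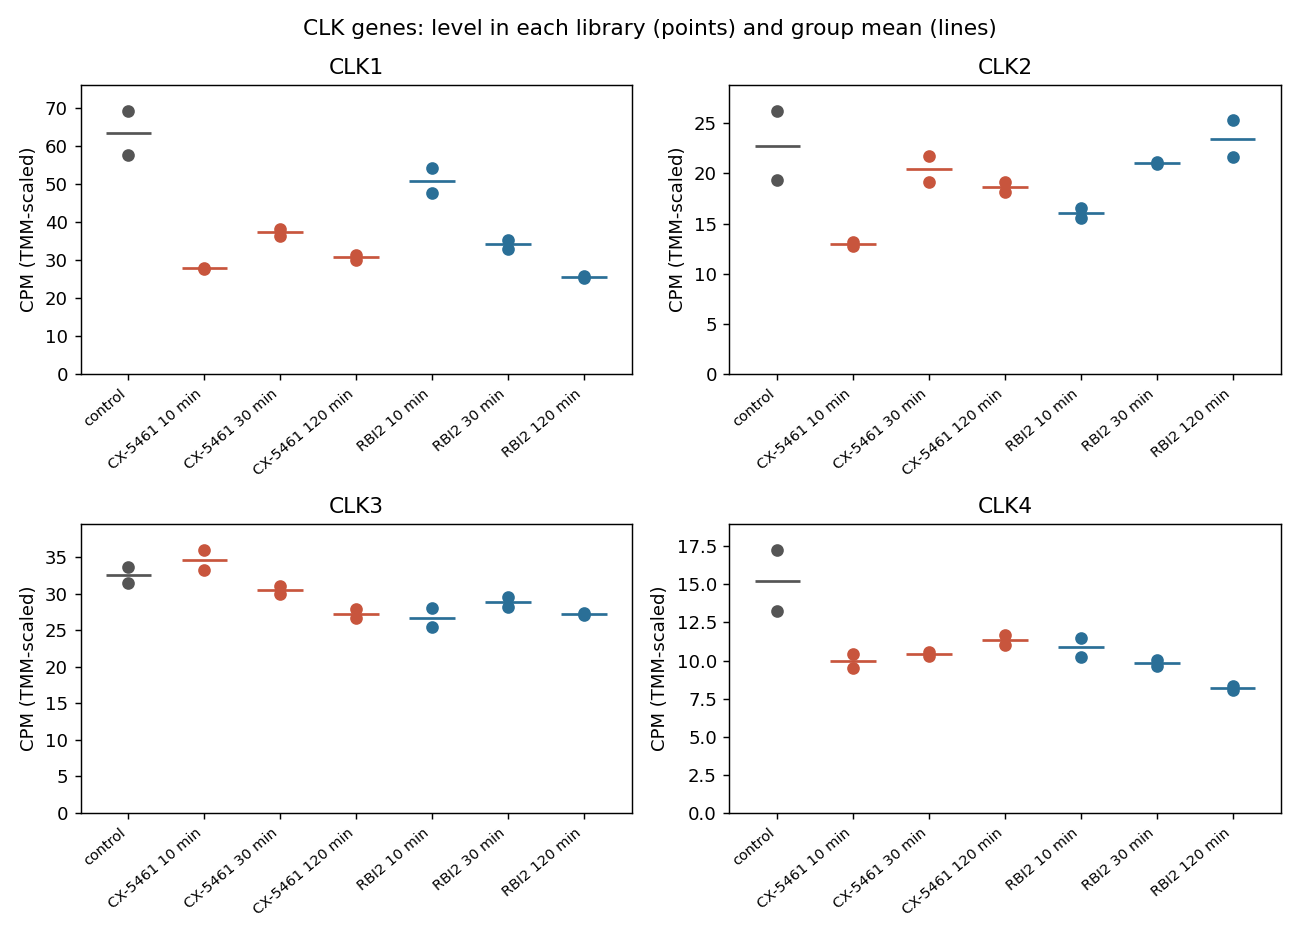
Level of each CLK gene in TMM-scaled CPM on the y axis, for each of the 7 groups on the x axis, with each library as a point and the group mean as a line. Both CLK1 control points, at 57.7 and 69.2, lie above every treated point, whereas the CLK3 points lie between 25.4 and 36.0.

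CLK4, the closest relative of CLK1 in this family, stood at 13.2 and 17.2 CPM in the control libraries. It lay between 8.08 and 11.7 CPM in the 12 treated libraries, all below both controls on this scale. By TPM, CLK4 stood at 10.9 and 8.23 in the controls and between 6.7 and 11.2 after treatment, so these libraries overlapped. None of its 6 changes against the control passed, and they lay between -0.42 at 120 min of CX-5461 (adjusted p = 0.30) and -0.89 at 120 min of RBI2 (SE 0.13, adjusted p = 0.0069). At 10 min of CX-5461 the change was -0.61 (adjusted p = 0.025).

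CLK2 was between 19.3 and 26.2 CPM in the control libraries, a wide spread. It was 13.1 and 12.8 CPM at 10 min of CX-5461, below both controls, with a change of -0.81 (SE 0.14, adjusted p = 0.0093) that was under the minimum size. The other CLK2 changes lay between -0.50 at 10 min of RBI2 (adjusted p = 0.22) and 0.05 at 120 min of RBI2 (adjusted p = 0.84).

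None of the 6 CLK3 changes against the control passed. Its control libraries were at 31.5 and 33.7 CPM, and both treated libraries lay below both of them in every group but CX-5461 at 10 min. By TPM, CLK3 stood at 21.506 and 18.341 in the controls. On that scale it lay below both in both libraries only at 10 min of RBI2 (17.657 and 18.295). Its changes lay between -0.29 at 10 min of RBI2 (adjusted p = 0.26) and 0.09 at 10 min of CX-5461 (adjusted p = 0.54). The control libraries also differed in another way: mitochondrial genes held 20.6% of the reads in control replicate 2 and between 8.14% and 11.3% in the other 13 libraries. Without that library, CLK1 changed by -0.93 at 120 min of CX-5461. Without either CX-5461 library of that time, CLK1 changed by -1.01 and -1.08. These fits leave 1 library in a group, as does the fit without control replicate 1. The other groups then give the spread, so only sizes of change are given and no call, passed or lost, is counted. With mitochondrial genes left out before scaling, an alternative added after seeing the data, all 3 CLK1 calls passed (-1.17, -1.05 and -1.29).

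**Figure D3:**
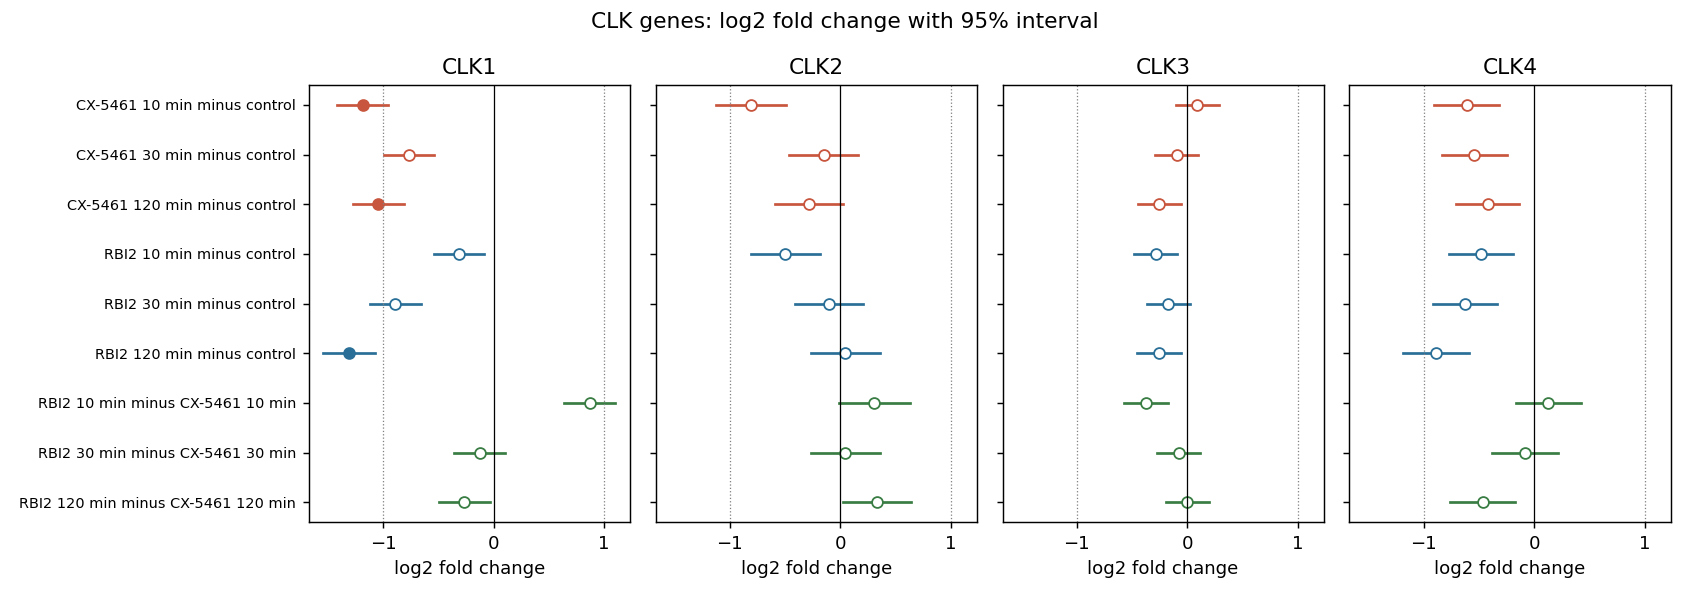
Log2 fold change of each CLK gene on the x axis for the 9 comparisons on the y axis, with the 95% interval of the fit as a line and filled points for changes that passed. Filled points appear for CLK1 alone, at -1.18, -1.04 and -1.304.

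The compounds were then compared with each other at each time, which made 12 tests of CLK genes, and none passed. At 10 min, CLK1 was higher after RBI2 than after CX-5461 by 0.87 (95% interval 0.64 to 1.099, adjusted p = 0.0011), where 1.04% of all genes passed. The 2 libraries of each group did not overlap. With the length offset the difference was 0.96 with an adjusted p of 0.078. At 30 min the difference was -0.12 (interval -0.35 to 0.11, adjusted p = 0.90), where 0.013% of genes passed, and at 120 min -0.26 (interval -0.50 to -0.03, adjusted p = 0.11), where 1.67% passed. The sign at 120 min turned with the length offset, to 0.45 (adjusted p = 0.25).

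For CLK4 the difference at 120 min was -0.47 (interval -0.76 to -0.17, adjusted p = 0.040), lower after RBI2. CLK3 was lower after RBI2 at 10 min by -0.37 (interval -0.57 to -0.18, adjusted p = 0.049). CLK2 differed by 0.33 at 120 min (interval 0.02 to 0.63, adjusted p = 0.13). The intervals of the other comparisons include 0, which does not show that the compounds act alike.

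The transcript-level estimates divide the CLK1 reads further. CLK1-201, the full-length coding transcript, was at 30.2 and 37.0 TPM in the control libraries, a unit that corrects for transcript length. It was between 8.42 and 17.3 TPM in the 12 treated libraries, so that the groups did not overlap. Tested over 54804 transcripts with edgeR, CLK1-201 fell by 2.05 on the log2 scale at 10 min of CX-5461 (SE 0.23, adjusted p = 0.012) and by 2.16 at 120 min of RBI2 (SE 0.23, adjusted p = 0.016). Its other changes against the control lay between -1.24 and -1.59, with adjusted p between 0.076 and 0.25. The uncertainty in how Salmon divides reads between transcripts of a gene did not enter this edgeR test. The SE and p-values of transcripts may therefore be too small. CLK1-203 had 110 and 0 reads in the control libraries. The changes of CLK1-203 lay between -0.02 at 30 min of RBI2 and 1.43 at 30 min of CX-5461, and none passed. The shares of all transcripts that passed against the control were 0.316%, 0.0693% and 0.0894% for CX-5461 at 10, 30 and 120 min, and 0.0748%, 0.1% and 0.164% for RBI2. No other named CLK transcript passed in this fit. With DESeq2, 14 tests of named CLK transcripts passed against the control instead of 2, among them CLK1-201 in all 6 comparisons. The shares above are those of edgeR, so nothing is read from the count with DESeq2. In edgeR both CLK1-201 calls were lost without the filter on low counts, with changes of -2.01 (adjusted p = 0.099) and -2.22 (adjusted p = 0.053). With either treated library of the comparison left out, the CLK1-201 changes were about as large as before. They were -2.17 and -1.93 for CX-5461 and -2.20 and -2.15 for RBI2. Such fits leave 1 library in a group, so the other groups give the spread, and no call is counted there.

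That transcript test could show little in simulated data. The spread of transcripts between libraries had a common coefficient of variation of 96.3%, against 12.3% for genes. The simulation, built for RBI2 at 10 min against the control, gave each transcript or gene its own estimated spread and not this common one. Of 200 transcripts changed by a log2 fold of 1.5 or 2, 0 were recovered, whereas 159 of 200 genes were. In the deposited data 41 transcripts passed in that comparison, so the simulation does not describe every transcript. A transcript that did not pass is still not shown to be unchanged.

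CLK1-204, the transcript without exon 4, had no estimated reads in either control library or in replicate 1 of CX-5461 at 10 min. Replicate 2 of that group had 43.4 reads. At 30 min of CX-5461 it had 74.4 and 77.8 reads, and at 120 min 95.5 and 83.0. After RBI2 it had 12.3 and 27.9 reads (10 min), 154 and 82.9 reads (30 min), and 27.3 and 66.1 reads (120 min). It did not pass in edgeR against the control (adjusted p between 0.28 and 0.77) or between compounds. No fold against the control is given because it had no estimated reads in either control library. Its estimated reads, like those of the other CLK1 transcripts, depend on how Salmon divides reads between transcripts that share exons.

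CLK1-210, which retains introns 3 and 4, had 189 and 222 reads in the control libraries. It had 278 and 216 reads at 10 min of RBI2, and 0 and 6.16 reads at 120 min of RBI2. At 30 min of CX-5461 it had 44.3 and 10.3 reads. Neither a rise nor a fall passed.

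The transcripts that span exon 4 were then grouped by its state, a grouping made after the values had been seen and given without a test. CLK1 transcripts that include the exon stood at 30.3 and 37.0 TPM in the control libraries and at most at 17.9 TPM in the treated ones. The skipped form made up 0% of the TPM of CLK1 transcripts that span the exon in both controls, between 23.3% and 25.7% at 30 min of CX-5461, and 35.4% and 25.5% at 30 min of RBI2. At 10 min it made up 0% and 14.6% for CX-5461 and 2.76% and 6.94% for RBI2, and at 120 min 19.9% and 21.3% for CX-5461 and 13.1% and 30.5% for RBI2. Retained forms made up 23.7% and 16.8% in the controls, 41.2% and 37.5% at 10 min of CX-5461, and 41.0% and 34.8% at 10 min of RBI2. In both 10 min groups the retained share lay above both controls, although the retained TPM at 10 min of CX-5461 (6.93 and 7.16) lay below both (9.42 and 7.47). At 30 min the retained share lay below both controls, at 14.9% and 14.4% for CX-5461 and at 15.3% and 15.6% for RBI2. At 120 min it was 13.8% and 23.1% for CX-5461 and 20.1% and 18.8% for RBI2, and all but the first of these lay between the controls.

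In CLK4 the included form made up 75.8% and 72.4% in the controls, and between 68.9% and 91.4% in the treated libraries. The skipped form of CLK4 lay between 0% and 15.6% over all libraries, with 8.36% and 2.66% in the controls. Retained forms of CLK4 made up 15.9% and 24.9% in the controls. They lay below both at 30 min, at 8.58% and 7.94% for CX-5461 and at 10.1% and 10.7% for RBI2. At 120 min of CX-5461 they lay below both as well, at 9.58% and 11.8%. In the other treated libraries they lay between 8.27% and 26.3%. The included CLK4 transcripts were at 8.08 and 5.79 TPM in the controls and between 4.50 and 7.92 TPM after treatment, so these groups overlapped.

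**Figure D4:**
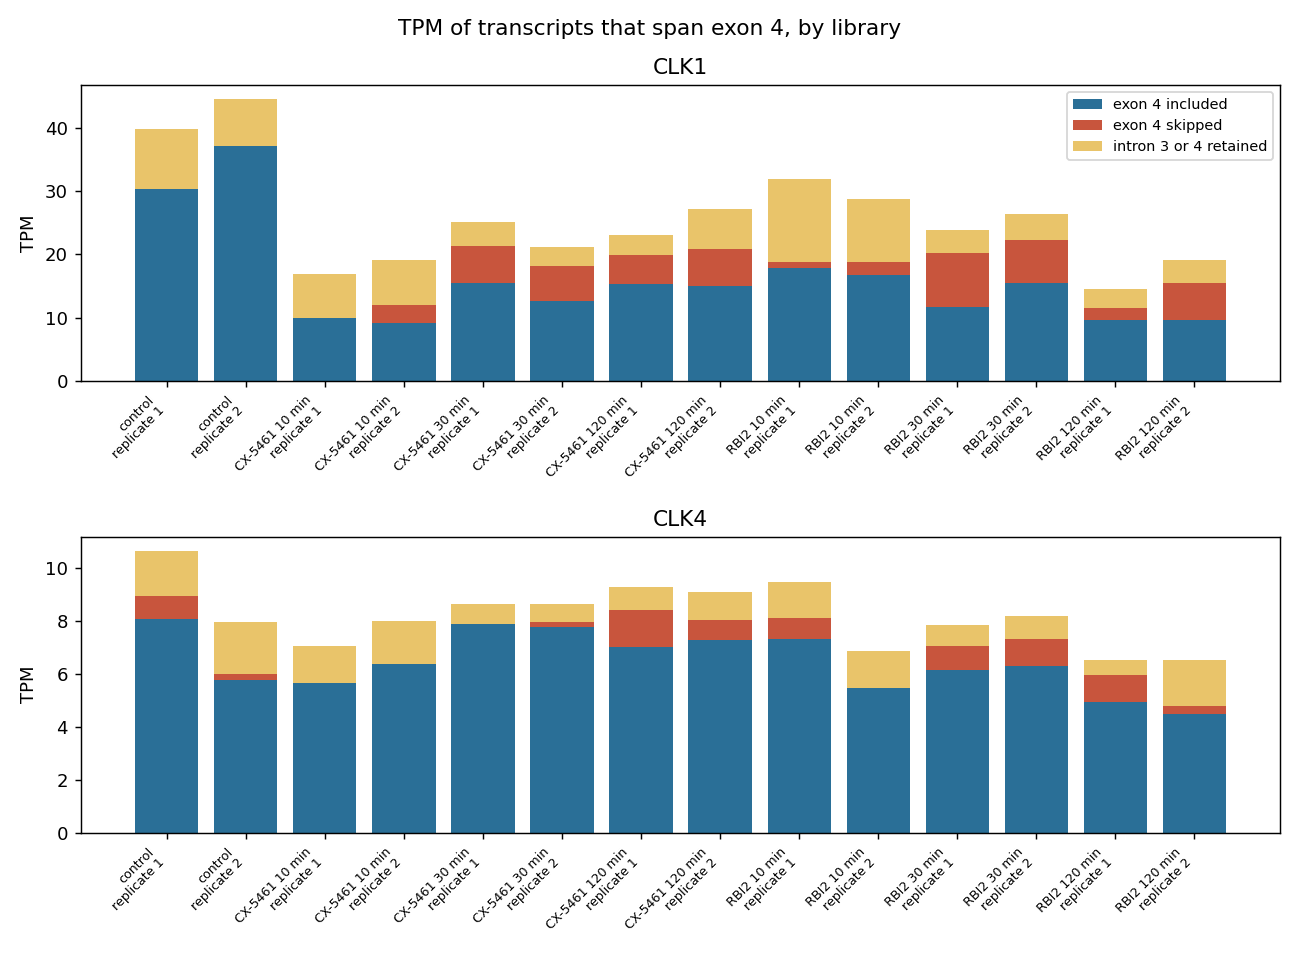
Summed TPM on the y axis of CLK1 and CLK4 transcripts that span exon 4, stacked by the state of that exon, for each library on the x axis. The CLK1 skipped form is at 0 in both control bars, and the included form is at 30.3 and 37.0 TPM there.

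Over all CLK1 transcripts, unproductive ones held 37.0% and 32.6% of the gene's estimated reads in the control libraries. Their share was 54.8% ± 8.19 (SD, n = 2) at 10 min of CX-5461, 38.8% ± 0.66 at 30 min and 38.9% ± 8.84 at 120 min. After RBI2 it was 52.5% ± 4.05, 53.5% ± 1.59 and 47.0% ± 0.75 at 10, 30 and 120 min. By reads, the RBI2 libraries all lay above both controls, and so did the CX-5461 libraries except replicate 1 at 120 min (32.7%).

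By TPM, the share was 53.9% and 21.3% in the 2 control libraries, and the group means lay between 34.4% and 71.7%. CLK1-209, a retained-intron transcript of 461 bases, had 34.6 TPM in control replicate 1 and was listed at 0 in control replicate 2, and it ranged from 0 to 40.02 TPM over the 14 libraries. How far this short transcript sets the level of CLK1 per length was not tested. At 10 min of CX-5461 it was at 13.6 and 0 TPM, while the gene stood at 42.9 and 43.5 TPM. In the controls the TPM of CLK1 was 91.8 and 47.1. CLK2 stood there at 11.9 and 11.6, CLK3 at 21.5 and 18.3, and CLK4 at 10.9 and 8.23. By TPM, the CLK1 libraries of CX-5461 stood at 42.9 and 43.5 (10 min), 69.6 and 70.2 (30 min), and 38.4 and 33.995 (120 min). Those of RBI2 stood at 86.0 and 84.8 TPM (10 min), 72.1 and 65.6 TPM (30 min), and 63.9 and 36.7 TPM (120 min). On this scale 7 of the 12 treated libraries lay above control replicate 2, and the treated libraries lay below both controls only at 10 and 120 min of CX-5461 and in replicate 2 of RBI2 at 120 min. CLK1 was the highest of the 4 per length in every library, followed by CLK3, and CLK2 was above CLK4 in each of the 14 libraries.

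The ratio of unproductive to protein-coding reads was tested with limma over 5084 genes that had both kinds. For CLK1 its log2 change was 1.19 at 10 min of CX-5461 (SE 0.35, adjusted p = 0.21), 1.05 at 10 min of RBI2 (adjusted p = 0.57) and 1.105 at 30 min of RBI2 (adjusted p = 0.40), and none passed. For CLK4 it was -1.33 at 30 min of CX-5461 (SE 0.39, adjusted p = 0.47), where the unproductive share of reads was 14.8% ± 1.51 (SD, n = 2) against 31.0% ± 2.98 in the control. For CLK3 the change at 10 min of CX-5461 was 1.09 (SE 0.46, adjusted p = 0.34). Of all genes tested, 0.118%, 0.059% and 0.0983% passed for CX-5461 at 10, 30 and 120 min, and 0.0983%, 0.0393% and 0.0197% for RBI2. In simulated data with the real spread, this test recovered 26 of 200 changed ratios for RBI2 at 10 min, so a ratio that did not pass is not shown to be unchanged.

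**Figure D5:**
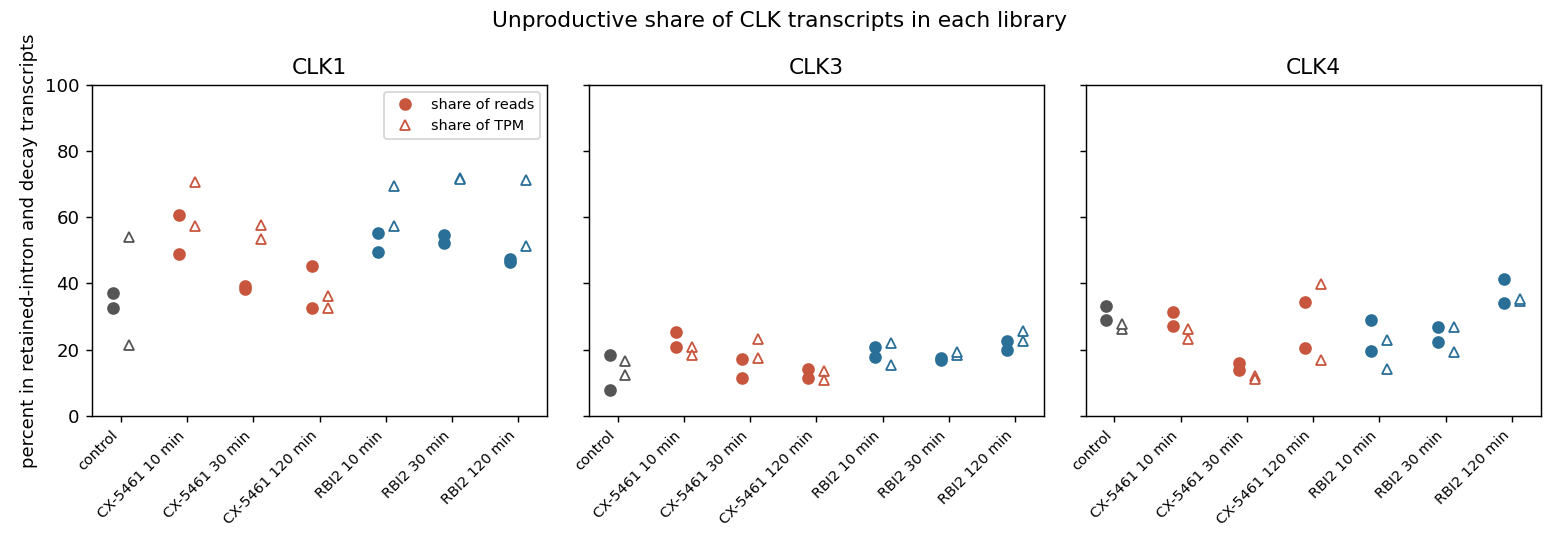
Percent of each gene in retained-intron and nonsense-mediated decay transcripts on the y axis, by reads (filled circles) and by TPM (open triangles), for each library of the 7 groups on the x axis. CLK1 controls are at 37.0% and 32.6% by reads but at 53.9% and 21.3% by TPM.

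The genes around the CLK kinases were given by fixed lists. Of 13 related kinases (SRPK, PRPF4B, DYRK and HIPK), 11 were tested, and none passed against the control in any of the 6 comparisons, in which between 0% and 1.82% of all genes passed. Lists of this size are not set apart by a count of 0 at such shares. Their median log2 fold change was -0.33 at 30 min of RBI2, beside -0.01 over all genes, and -0.05 at 120 min of CX-5461, beside 0.06. None of the 16 SR proteins and related substrates passed in these comparisons, beside the same shares of all genes. Their median lay between -0.16 at 30 min of RBI2 and 0.04 at 10 min of RBI2, beside -0.01 and 0.01 over all genes. None of the 14 factors of nonsense-mediated decay and the exon junction complex passed, and their median lay between -0.05 and 0.03, beside medians between -0.05 and 0.06 over all genes in the same comparisons.

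The genes whose levels over the 14 libraries were most like each member were found by Pearson's r of log2 CPM among 10569 other genes with a mean of at least 5 CPM. The points share libraries and treatment groups, and the values are a description. For CLK1 these were LUC7L3 (r = 0.91), SIAH2 (0.88) and ZCCHC10 (0.88). For CLK2 they were C19orf44 (0.96), NR2F2 (0.95) and FOSL1 (0.94), and for CLK3 FKBP3 (0.90), HPF1 (0.87) and HAUS8 (0.86). For CLK4 they were CLDND1 (0.95), UBE2D3 (0.94) and ORC5 (0.93). Among the members, CLK1 and CLK4 were the most alike (r = 0.82), and CLK2 and CLK3 the least (r = -0.27).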

How the data were processed

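MDA-MB-231 RNA was sequenced from stranded poly(A) libraries, 2 per group in 7 groups. The authors removed reads that aligned to the rDNA repeat and assigned the rest to GRCh38 transcripts with Salmon (1.3.0 in the submitters' processing notes). The deposited values used here are estimated counts, not normalized, and TPM values, which the authors' Salmon run scaled by effective length and by library total. Transcripts were matched to GENCODE release 44 by identifier without version (225662 of 228754). Estimated counts were summed per gene or class and rounded for the count tests.

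The members and lists were chosen with earlier results of these data known. Tests used edgeR 4.0.16 (TMM, filterByExpr with minimum count 10, 7 groups in 1 model) and limma 3.58.1 for log2((unproductive reads + 1) / (protein-coding reads + 1)), with at least 10 reads on average in both classes, in R 4.3.3. DESeq2 1.42.0 was an alternative. Calls required an adjusted p below 0.05 and a log2 change of 1 or more in size. Named were the 4 genes, transcripts with at least 5% of their gene's TPM, the 3 genes most alike to each member, and list members that passed.

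The scripts were tested on simulated data. A first simulation gave transcripts the spread of genes and recovered too few of them by the criterion then set. It was replaced by 2 simulations, at low spread to check the scripts and at the spread estimated for each gene, transcript or ratio. The latter measured what can be detected. The criterion was set anew after the result of the first simulation was known. At low spread, 144 of 200 changed transcripts were recovered, among them all 85 with a mean of at least 50 reads.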

Additional observations from a re-analysis of the deposited data

Results flagged for a closer look

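The difference in CLK1 between RBI2 and CX-5461 was 0.87 at 10 min, -0.12 at 30 min and -0.26 at 120 min on the log2 scale. A test of the change itself was prompted by these values and is no independent support for them. In it the difference at 10 min exceeded that at 30 min by 0.992 (SE 0.15, edgeR adjusted p = 0.011) and that at 120 min by 1.13 (SE 0.15, adjusted p = 0.0044). Over all 15426 genes, 122 and 651 had an edgeR adjusted p under 0.05 in these 2 tests, whatever the size of their change. How many also reached the minimum size is not given, so nothing is read from the value of 1.13 against these counts. The value of 0.992 lay under the minimum size of 1 and did not pass. The difference at 30 min exceeded that at 120 min by 0.14 (edgeR adjusted p = 0.72). With the length offset the differences were 0.96, -0.11 and 0.45, so that the sign at 120 min turned. In the same test with that offset, also added after seeing the data, the difference at 10 min exceeded that at 30 min by 1.07 (adjusted p = 0.36) and that at 120 min by 0.51 (adjusted p = 0.49), and neither passed.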

How the results depend on the processing

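Of 24 gene tests against the control 3 passed, all of CLK1. With the length offset 0 passed: CLK1 changed by -0.834, -1.09 and -0.645 in these 3, and the sign turned for CLK1 at 10 min of RBI2 (0.127) and between compounds at 120 min (0.448), for CLK3 at 10 min of CX-5461 (-0.0359) and for CLK2 at 30 min of RBI2 (0.0294). With DESeq2 and the offset together, added after seeing the data, 1 passed: CLK1 changed by -0.83, -1.13 and -0.645, and the same 4 signs turned (0.122, 0.486, -0.0283 and 0.0281). With only the 4 libraries 0 passed, and CLK1 changed by -1.17, -1.07 and -1.3. The cause was not tested. The CLK3 difference between compounds at 120 min, near 0, turned sign with DESeq2 (0.0245), its size factors (0.026), no filter (0.0181), version-matched transcripts (0.0391), only the 4 libraries (0.0018) and, added after seeing the data, mitochondrial genes left out (0.0208) and DESeq2 with the offset (0.0355).

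With 1 library left out, its group keeps 1 library and the other groups give the spread, so only the sizes of change are given. CLK1 ranged from -1.17 to -0.927 at 120 min of CX-5461 and from -1.02 to -0.757 at 30 min of RBI2, CLK4 from -1.08 to -0.696 at 120 min of RBI2, and CLK2 from -1.02 to -0.574 at 10 min of CX-5461, -0.362 to 0.0907 at 30 min of CX-5461, -0.321 to 0.118 at 30 min and -0.173 to 0.269 at 120 min of RBI2. Between compounds, CLK2 ranged from -0.0468 to 0.103 at 30 min and CLK3 from -0.0173 to 0.0555 at 120 min.

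Transcript tests that passed against the control numbered 2, but 0 without the filter and 14 with DESeq2 (1 between compounds). The shares of all transcripts that passed are given for edgeR with the filter alone, so nothing is read from these counts. With libraries left out, only sizes of change are given here. CLK3-201 at 10 min of CX-5461 turned to -0.0439 with size factors and -0.0379 with DESeq2, and ranged from -0.0603 to 0.0899 with libraries left out (-0.0967 to 0.0348 at 30 min). CLK2-202 at 30 min of RBI2 turned to 0.019 without the filter. With libraries left out, CLK2-202 ranged from -0.859 to 0.569 and -1.2 to 0.266 at 30 and 120 min of CX-5461, from -1.35 to 0.0879, -0.828 to 0.881 and -0.71 to 0.716 at 10, 30 and 120 min of RBI2, and from -0.513 to 0.834 between compounds at 30 min. CLK4-201 between compounds at 10 min ranged from -0.071 to 0.289, and CLK1-201 at 30 min from -0.273 to 0.0132.

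No ratio passed. With TPM, the ratio change at 120 min of CX-5461 turned to -0.105 (CLK1), -0.182 (CLK3) and 0.128 (CLK4), and that of CLK3 between compounds at 30 min to -0.251. With retained-intron transcripts alone it turned for CLK1 at 30 (-0.355) and 120 min (-0.41) and CLK3 at 30 min (-0.129) of CX-5461, and CLK4 at 120 min of RBI2 (-0.229). With decay transcripts alone it turned for CLK4 at 120 min of CX-5461 (1.02) and 30 min of RBI2 (0.976), and for CLK1 between compounds at 10 (0.777) and 120 min (-0.16). With libraries left out, CLK4 ranged from -0.261 to 0.025 and -0.71 to 0.216 at 10 and 120 min of CX-5461, CLK3 from -0.456 to 0.939 and -0.586 to 0.809 at 30 and 120 min of CX-5461, -0.123 to 1.27 at 30 min of RBI2 and -0.00209 to 0.668 between compounds at 30 min, and CLK1 from -0.135 to 0.626 at 120 min of CX-5461 and -0.476 to 0.199 between compounds at 10 min.

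By reads, the unproductive share of CLK1 was 38.8% and 38.9% at 30 and 120 min of CX-5461 and 52.5%, 53.5% and 47.0% at 10, 30 and 120 min of RBI2. That of CLK3 was 23.1% and 14.2% at 10 and 30 min of CX-5461 and 17.2% and 21.2% at 30 and 120 min of RBI2, and that of CLK4 31.0% in the control, 29.2% and 14.8% at 10 and 30 min of CX-5461 and 37.7% at 120 min of RBI2. With transcripts of undefined coding sequence counted, the share of CLK2 went from 0% to 48.0% in the control, with group means from 40.6% at 30 min of RBI2 to 67.5% at 10 min of CX-5461, and CLK3 had 20.1% in the control, 23.0%, 28.0% and 22.9% at 10, 30 and 120 min of CX-5461 and 24.6% at 10 min of RBI2. Of the listed related genes, HIPK2 passed at 120 min of RBI2 with the length offset (1.18) and with DESeq2 and the offset (1.19). Without control replicate 2, HIPK2 changed there by 1.21. PRPF4B passed at 30 min of RBI2 with DESeq2 and the offset (-1.05). The shares of all genes that passed in these settings are not given, so nothing is read from these calls.

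Replicate numbers are shared by the groups, but nothing says that they pair libraries, and replicate differences correlated between -0.18 and 0.18 over 21 pairs of groups. With the replicate block, CLK1 changed by -1.18, -1.04 and -1.3 where it had passed, all 3 calls stood, and CLK2-202 at 30 min of RBI2 turned to 0.015. The block moved the genes called at 30 min of RBI2 from 6 to 1. Crossed numbers at 30 min of CX-5461 gave 0 genes called, as without them.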
